A study of Mus musculus with 6 samples.

Results

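The Notch pathway and Hes genes described here are Notch1, Notch2, Notch3, Dll1, Dll3, Jag1, Hes1, Hes5, Hes6 and Hey1, measured in the primary somatosensory cortex (S1) of C57BL/6 mice at postnatal day 7. Their probes were taken by gene name from the 1-colour arrays, which gave 13 probes for 10 genes, out of 55681 probes in all. The list was drawn up because the signal of Hes5 was higher while astrocyte genes were lower in the comparison of the groups, so the differences of the 10 genes between the groups are a description and carry no test. All 13 probes were well above background on all 6 arrays.

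Each array held the RNA of 1 sample. The 3 samples labelled cKO carried floxed alleles and Cre (Lhx2f/f;Nex-Cre), and the 3 control samples carried the floxed alleles alone (Lhx2f/f), although their titles call them WT. Nex-Cre is driven by the Neurod6 (Nex) locus, which newly formed excitatory cortical neurons switch on, so Cre acts in that lineage and not in all cells of the tissue. The design speaks of 3 cortices per group and the labels say nothing of pooling or of litters, so the errors below measure the spread between these samples.

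In Notch signalling, a ligand of the Delta or Jagged family on one cell binds a Notch receptor on its neighbour. The receptor is then cut, and its intracellular part enters the nucleus, where it joins the DNA-binding protein RBPJ and a Mastermind coactivator to switch on target genes. Hes1, Hes5 and Hey1 are targets that encode basic helix-loop-helix repressors. In the developing cortex they hold down proneural genes, which keeps progenitors undifferentiated, and Hes5 is known as a gene of radial glia and of the astrocyte lineage.

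Values are log2 signals set relative to the 75th percentile of the same array, as mean ± SD over 3 arrays, and a difference is the mean of the arrays labelled cKO minus the mean of control, with the standard error (SE) of the limma fit. A probe's brightness depends on its sequence, so levels are compared within a probe only. The 75th percentile of the processed signal lay between 892 and 1067 intensity units, 86.7% to 91.1% of spots stood well above background, with 0 saturated. The number of arrays limits the precision. The Lhx2 probe read 4.55, 4.68 and 4.89 on the arrays labelled cKO and 3.62, 3.63 and 3.55 on the control arrays. The targeted gene was thus 2.15-fold higher in signal under the cKO label (limma adjusted p = 0.067, not passed), opposite to a loss of transcript. Neurod6, whose locus drives Cre, read 2.85, 2.50 and 2.52 on the arrays labelled cKO and 2.27, 2.13 and 2.35 on the control arrays. Its difference was 0.37 (SE 0.13, limma adjusted p = 0.52, not passed). The groups did not overlap for Neurod6, as for 13.2% of all genes. The labels do not say which part of the gene is floxed or whether the probe lies in it, so the samples are called arrays labelled cKO throughout and each direction rests on the labels. Y-linked signal (Ddx3y and Eif2s3y) was present on control replicates 1 and 3 and on 0 of 3 arrays labelled cKO. A single slide held the 6 arrays, and slide row 1 (cKO replicate 2, control replicate 1) and slide row 2 (cKO replicate 3, control replicate 2) held both groups. In both rows the one labelled cKO was in column 2 of the slide and its control was in column 1, so a difference within a row is also one between columns. Column 1 held cKO replicate 1 and all control arrays. Of the excitatory neuron markers, 10 of 10 were measured above background on at least 3 arrays, as were 6 of 6 striatal markers.

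Of the 10 genes, 3 read higher and 7 lower in the arrays labelled cKO by sign, with a median difference of -0.20 against 0.02 over all 32696 genes tested. In the fit over all genes with Benjamini-Hochberg adjustment, 0 of the 10 passed an adjusted p of 0.05, where 3 of all genes did (0.00918%); at an unadjusted p under 0.05 there were 3 of the 10, against 7.49% of all genes. The 2 groups did not overlap for 3 of the 10 genes, Hes5 (higher) and Notch3 and Hey1 (lower), where 13.2% of all genes did not overlap. Since this contrast chose the list, nothing is read from these counts. The plot of signals by array shows each probe.

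**Figure D1:**
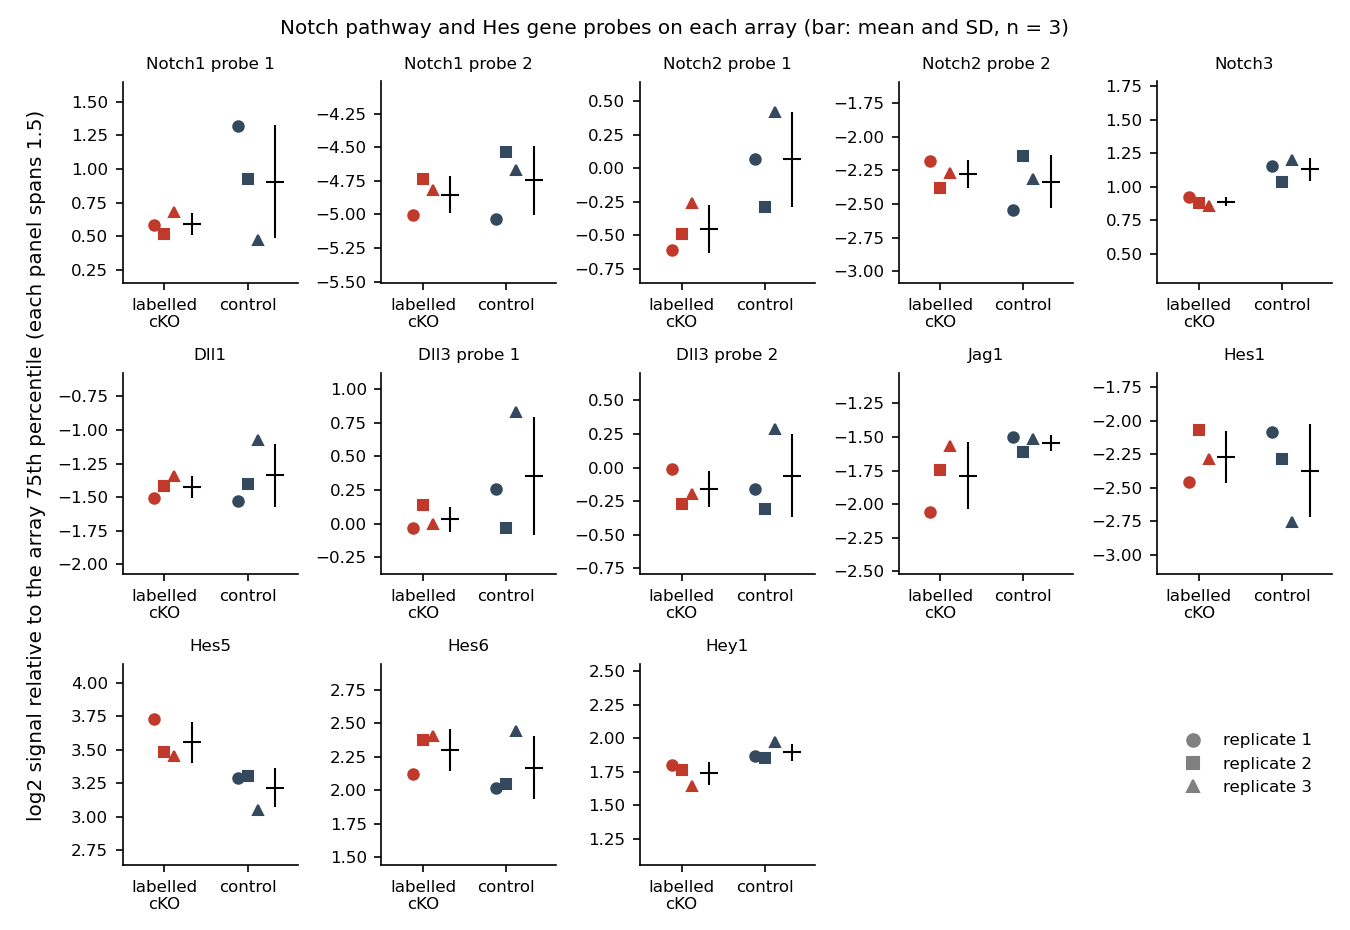
Log2 signal of each of the 13 probes relative to the array's 75th percentile (vertical axis, each panel spanning 1.5 log2 units) on the 3 arrays labelled cKO (red) and the 3 control arrays (dark); marker shape gives the replicate and the bar the mean and SD (n = 3). The groups stand apart for Hes5, Notch3 and Hey1, and control replicate 3 is the highest control array for Dll1, both Dll3 probes and Hes6 and the lowest for Hes1 and Hes5.

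Among the ligands, Dll1 was close to equal between the groups. Dll1 encodes a Delta ligand made by newly born neurons and neurogenic progenitors. Its probe read -1.51, -1.42 and -1.34 on the arrays labelled cKO and -1.53, -1.41 and -1.07 on the control arrays. The groups overlapped, and control replicate 3 was the highest of the 6. The difference was -0.09 (SE 0.14). Dll1 was spotted 10 times on each array, so its value on an array is a mean over spots: the SD between its spots lay between 0.15 and 0.22 on the arrays labelled cKO and between 0.05 and 0.12 on the control arrays, after 0 or 1 and 0 to 2 outlier spots were left out.

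Dll3 encodes a divergent Delta protein that acts mainly inside the cell that makes it and does not activate Notch on neighbours. Its probes, with starts 0.298 kb apart, differed in the size of the shift. The brighter probe (mm9 chr7:29078763-29078822) read -0.04, 0.13 and -0.01 on the arrays labelled cKO and 0.26, -0.03 and 0.83 on the control arrays, a difference of -0.32 (SE 0.21). The other (chr7:29079061-29079120) read -0.01, -0.27 and -0.20 on the arrays labelled cKO and -0.16, -0.31 and 0.29 on the control arrays, a difference of -0.10 (SE 0.17). In both probes the groups overlapped and control replicate 3 stood highest. Without control replicate 3 the difference of the brighter probe was -0.08, and against control replicate 2 alone, the control array without Y-linked signal, it was 0.062.

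Jag1 encodes a Jagged ligand used by vessels and by progenitors. It read -2.06, -1.74 and -1.57 on the arrays labelled cKO and -1.50, -1.61 and -1.52 on the control arrays, a difference of -0.25 (SE 0.14). Here the spread lay in the arrays labelled cKO (SD 0.25 against 0.06 in control). cKO replicate 1 was the lowest, and replicate 3 lay within the control range. Within slide row 1 the difference was -0.24, within row 2 it was 0.05, and with slide column as a term it was -0.51.

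All 3 receptor genes had a probe that read lower in the arrays labelled cKO, and for Notch1 and Notch2 a second probe gave a smaller or an opposite value. The sequences are shown because the paired probes read different stretches of the same gene, and each line gives the first 30 of the 60 bases, 5′ to 3′, in the order brighter probe, other probe.
Notch1 probe 1: tcctgcagtggagggggccttgagacaggc
Notch1 probe 2: ttgcttctttccaaaatcgaaaagaaagaa
Notch2 probe 1: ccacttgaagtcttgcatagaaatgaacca
Notch2 probe 2: tcttcaccacactctgcatctgactggtca
On mm9, the Notch1 probes lie at chr2:26319440-26319499 and chr2:26314630-26314689 on the minus strand, with starts 4.81 kb apart. The Notch2 probes lie at chr3:97953914-97953973 and chr3:97951233-97951292 on the plus strand, 2.68 kb apart. No annotation of that build was at hand to place them in exons or UTRs.

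Notch1, the receptor of cortical progenitors and of endothelium, read 0.59, 0.51 and 0.68 on the arrays labelled cKO with probe 1, and 1.32, 0.93 and 0.47 on the control arrays. The arrays labelled cKO lay close together, and control replicate 3 fell below all of them. The difference was -0.31 (SE 0.21). Probe 2 was dim and read -5.01, -4.74 and -4.81 on the arrays labelled cKO and -5.03, -4.53 and -4.67 on the control arrays, a difference of -0.11 (SE 0.15). For probe 1 the difference was -0.11 without control replicate 1 and -0.53 without control replicate 3, so its size depended on the control arrays.

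Notch2, a receptor of glial progenitors and astrocytes, had the lowest difference of the 10 genes with probe 1 and a value close to 0 with probe 2. Probe 1 read -0.60, -0.49 and -0.26 on the arrays labelled cKO and 0.07, -0.29 and 0.42 on the control arrays, a difference of -0.52 (SE 0.19). The groups overlapped, with control replicate 2 next to cKO replicate 3, and within slide row 2, which holds those arrays, the difference was 0.03. Probe 2 read -2.18, -2.38 and -2.27 on the arrays labelled cKO and -2.54, -2.14 and -2.32 on the control arrays, a difference of 0.06 (SE 0.13). The values of the probes lay 0.57 apart, for which no SE was computed, and the mean of both gave -0.23. Against control replicate 2 alone, probe 1 differed by -0.16.

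Notch3 is the receptor of pericytes and vascular smooth muscle, the mural cells of vessels. It read 0.92, 0.88 and 0.86 on the arrays labelled cKO and 1.16, 1.04 and 1.20 on the control arrays. Every array labelled cKO lay below every control array, and the difference was -0.24 (SE 0.09), 1.18-fold lower. Within slide rows 1 and 2 it was -0.28 and -0.18, and against control replicate 2 alone -0.15. Mural markers read lower with it. Of 10 mural markers, 9 were lower by sign and 0 passed over all genes, and the median difference was -0.22. At an unadjusted p under 0.05 there were 3, against 7.49% of all genes. The groups did not overlap for 4, all lower, against 6.19% of all genes not overlapping and lower. The markers with the smallest p were Tagln at -0.39, Pdgfrb at -0.35 and Acta2 at -0.41, each with groups that did not overlap. Myh11, a smooth muscle marker, was the 1 that read higher, at 0.09. Its groups overlapped, as did those of the lower markers outside the 4 that did not overlap. The summed signal of the list, in multiples of the array's 75th percentile, lay between 11.1 and 15.0 on the arrays labelled cKO and between 14.8 and 18.5 on the control arrays. The part of mural RNA in the Notch3 value was not tested. In tissue RNA, fewer cells of a type and less RNA per cell cannot be told apart.

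The targets and their relatives differed in sign. Hes5, the gene for which the list was drawn up, read 3.73, 3.48 and 3.45 on the arrays labelled cKO and 3.29, 3.31 and 3.05 on the control arrays. The lowest array labelled cKO lay 0.15 above the highest control array, and the range was 0.28 within the arrays labelled cKO and 0.25 within control. The difference was 0.34 (SE 0.12), a 1.26-fold higher signal. Of all genes tested, 3.66% had a higher difference, a rank that is a description only, since this same difference chose the gene. The value leaned on cKO replicate 1 and control replicate 3. Without the first it was 0.25 and without the second 0.25. Within slide row 1 the difference was 0.19 and within row 2 it was 0.15, each of 1 array against 1. With slide column as a term, where cKO replicate 1 alone is set against control, it was 0.51. Hes5 was read by 1 probe (mm9 chr4:154336347-154336406, plus strand), whose first 30 of 60 bases identify what was measured.
Hes5 probe: acgatgatccttaaaggattcctttgtatg

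The Hes5 promoter is shown because Hes5 is a target of Notch signalling, in which RBPJ is the DNA-binding protein. The line gives the 250 bases before the annotated start (RefSeq, GRCm38.p6, chr4:154960673-154960922, plus strand, 5′ to 3′), with matches to the RBPJ site GTGGGAA in capitals, read on either strand.
Hes5 promoter: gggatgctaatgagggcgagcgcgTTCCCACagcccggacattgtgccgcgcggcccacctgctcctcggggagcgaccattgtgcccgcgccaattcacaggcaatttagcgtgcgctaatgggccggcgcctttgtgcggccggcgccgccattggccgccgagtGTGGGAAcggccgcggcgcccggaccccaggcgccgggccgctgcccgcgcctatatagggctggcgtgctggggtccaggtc
One match lies on the strand of the gene at -83 to -77 from the start, and the other lies on the opposite strand at -226 to -220, where it reads TTCCCAC. Promoters of 8 of the 10 genes were searched (10 promoters in the RefSeq table), and those of Hes1 and Hey1 were not. Among the genes searched Hes5 was the 1 with this motif, against 5.42% of 32851 promoters of 27025 genes. CACNAG, the N box that Hes proteins can bind, was in 4 of the 10 promoters (of Notch1, Notch2, Notch3 and Hes6), against 36.7% of all promoters. CACGNG, a class C site, was in 6 of the 10 (of Notch2, Notch3, Dll1, Jag1 and Hes6), against 23.5% of all. In Notch3 both motifs match the same 6 bases. TAATTA, a core that many homeodomain proteins bind, was in 0 of the 10 promoters and in 4.84% of all. Both strands were searched. The 10 promoters held 52% to 72% GC, against a median of 52.4% over all promoters, and the part of GC content in these counts was not tested. A match is a description of the letters, not a binding site.

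Hes1 encodes a repressor closely related in function to Hes5, with autoregulated, fluctuating expression in progenitors. Hes1 read -2.46, -2.07 and -2.28 on the arrays labelled cKO and -2.08, -2.28 and -2.75 on the control arrays. The groups overlapped over most of their range, and the difference was 0.10 (SE 0.19). It was 0.01 within slide row 1 and 0.00165 within row 2. Without control replicate 3, the lowest array, it was -0.09.

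Hes6 is not a Notch target of this kind: its protein counters Hes1 and promotes neuronal differentiation. It read 2.12, 2.37 and 2.40 on the arrays labelled cKO and 2.02, 2.05 and 2.44 on the control arrays, a difference of 0.13 (SE 0.15). Control replicate 3 was the highest of the 6 arrays, and control replicates 1 and 2 were the lowest pair. Within both slide rows the difference was 0.36, without control replicate 3 it was 0.27, and with slide column as a term it was -0.05.

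Hey1, a repressor related to Hes proteins and used by endothelium and progenitors, was slightly lower. It read 1.80, 1.77 and 1.64 on the arrays labelled cKO and 1.87, 1.86 and 1.97 on the control arrays. The groups did not overlap, but cKO replicate 1 lay close under control replicates 1 and 2. The difference was -0.16 (SE 0.09), with -0.10 within slide row 1 and -0.21 within row 2. Of 14 endothelial markers, 9 were lower by sign, with a median difference of -0.11, and 0 passed over all genes. An unadjusted p under 0.05 was found for 0 of the 14 markers, against 7.49% of all genes. Their summed signal lay between 34.2 and 37.7 on the arrays labelled cKO and between 33.3 and 42.1 on the control arrays.

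**Figure D2:**
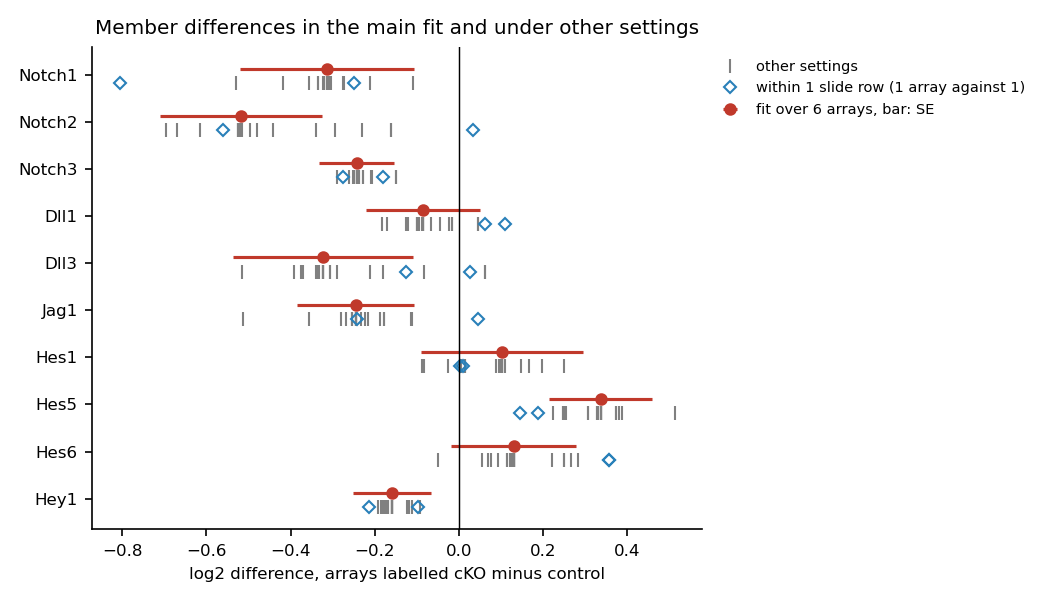
Log2 difference between arrays labelled cKO and control for the brightest probe of each of the 10 genes (points, bar: SE), with the values under other ways of processing (grey ticks) and within slide rows 1 and 2 (diamonds, 1 array against 1). Hes5 stays above 0 and Notch1, Notch3 and Hey1 stay below 0 throughout, while Dll1, Dll3, Jag1, Notch2, Hes1 and Hes6 cross 0. Because the groups of Hes5, Notch3 and Hey1 do not overlap, values from a part of the arrays could not cross 0 for these genes.

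The other genes of the pathway were taken from a list of 66 genes by role, of which 65 were tested (Helt was not well above background on enough arrays). None of the 65 passed over all genes in either direction by limma, and the lowest adjusted p was 0.32. An unadjusted p under 0.05 was found for 8 of the 65, against 7.49% of all genes. By sign 36 were higher and 29 lower, and the median difference was 0.02, as over all genes. The groups did not overlap for 13 of them (5 higher, 8 lower), which is 20% against 13.2% of all genes (6.98% higher and 6.19% lower).

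The values with the smallest p in this list included those of genes of receptor glycosylation and of the nuclear complex. Lfng, a fringe glycosyltransferase that sets which ligands a Notch receptor answers to, read -1.64, -1.67 and -1.51 on the arrays labelled cKO and -1.24, -1.10 and -1.25 on the control arrays. The groups did not overlap, and the difference was -0.41 (SE 0.10, limma adjusted p = 0.32). Its relative Mfng read 0.24, 0.24 and 0.22 on the arrays labelled cKO and 0.58, 0.52 and 0.96 on the control arrays, a difference of -0.45 (adjusted p = 0.41), and its other probe gave -0.32. The third fringe gene, Rfng, differed by 0.07, and the O-fucosyltransferase gene Pofut1 by -0.05.

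Rbpj, the DNA-binding partner of cleaved Notch, read -0.10, 0.20 and 0.29 on the arrays labelled cKO and 0.43, 0.48 and 0.53 on the control arrays, a difference of -0.35 (SE 0.12, adjusted p = 0.55). Its other probe gave -0.03, so the value rests on the brighter probe. The coactivator gene Maml3 differed by -0.38 (SE 0.10, adjusted p = 0.33), and its other probes gave -0.40 and 0.04. Its relatives Maml1 and Maml2 differed by 0.08 and 0.07.

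Noncanonical ligands were higher by value. Dner, a neuronal transmembrane protein, read 4.32, 4.13 and 3.86 on the arrays labelled cKO and 3.79, 3.82 and 3.63 on the control arrays, a difference of 0.36 (SE 0.14, adjusted p = 0.60). Dlk2, a Delta-like homologue, differed by 0.27 (SE 0.09, adjusted p = 0.52), and its other probe gave 0.28. With these, all 5 ligands of the list read higher by sign, as did 18221 of all 32696 genes. The member ligands Dll1, Dll3 and Jag1, which that list leaves out, read lower (-0.09, -0.32 and -0.25). Of the 5, 3 did not overlap between the groups (Dner, Dlk2 and the Delta ligand Dll4 at 0.10), against 6.98% of all genes not overlapping and higher. For Dll4 the groups all but touched, with -2.609 on both cKO replicate 3 and control replicate 3. Jag2 and Dlk1 overlapped, at 0.08 and 0.06. For Dner the difference was 0.04 within slide row 2. Further named genes were Dtx3l, a Deltex relative, at -0.24 with its brightest probe and -1.32 (SE 1.06) with the other, the corepressor gene Tle2 at 0.18 and the receptor-cleaving protease gene Adam17 at -0.59. Adjusted p for these lay between 0.67 and 0.73, and Adam17 read 0.03 against control replicate 2 alone. Among the further Hes and Hey genes, Heyl read lower on every array labelled cKO than on any control array, with a difference of -0.15. Hes3 at -0.13, Hes2 at 0.00246, Hes7 at 0.03 and Hey2 at 0.11 overlapped, and limma gave all 5 an adjusted p of 0.88 or above.

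**Figure D3:**
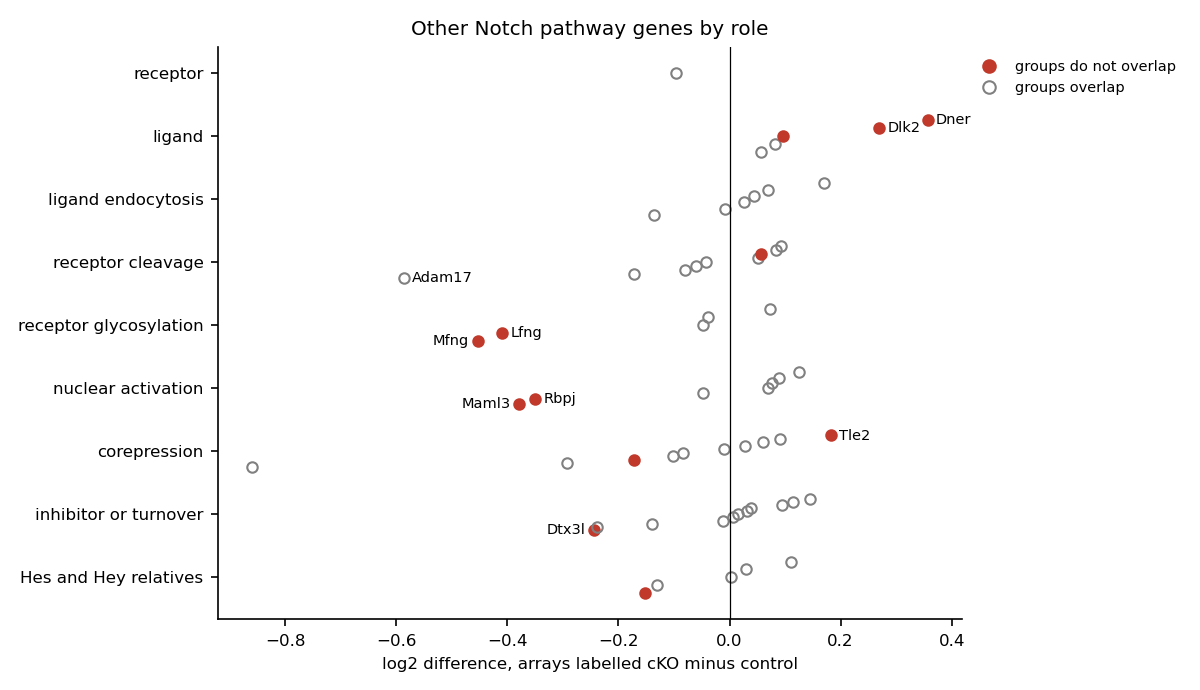
Log2 difference between arrays labelled cKO and control (horizontal axis) for tested genes of the wider Notch pathway other than proneural genes, grouped by role; filled points mark genes whose groups do not overlap, and genes with the smallest p are named. Values lie on both sides of 0 in most roles, from -0.86 for the corepressor gene Tle1, whose groups overlap, to 0.36 for Dner.

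Markers of the cell types that use these genes were set beside them. All 20 astrocyte markers read lower by sign in the arrays labelled cKO, with a median difference of -0.48. Of these 0 passed over all genes, and 17 had an unadjusted p under 0.05, against 7.49% of all genes. The groups did not overlap for 15, all lower, against 6.19% of all genes not overlapping and lower. Gfap, the intermediate filament of astrocytes, differed by -1.15 (limma adjusted p = 0.089), the water channel gene Aqp4 by -0.46 and Ndrg2 by -0.42. The summed astrocyte signal lay between 194 and 228 on the arrays labelled cKO and between 269 and 303 on the control arrays. On every array labelled cKO, Hes5 thus read higher and the median of these markers lower than on any control array. Within the groups the values were not opposite. Control replicate 3 was the lowest control array for both, and cKO replicate 3 was the lowest array labelled cKO for both. The lower astrocyte values took part in the choice of the list, so the contrast between the groups is a description.

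Among radial glia and progenitor markers, control replicate 3 stood above the other arrays. Of 12 markers, 10 were lower by sign, with a median difference of -0.35, and 0 passed. At an unadjusted p under 0.05 there was 1, Hopx at -0.46, against 7.49% of all genes. Relative to the control mean, the list's median was -0.47, -0.32 and -0.16 on the arrays labelled cKO and -0.14, -0.21 and 0.33 on the control arrays. Control replicate 3 was thus the highest for this list, as it was for Dll1, both Dll3 probes, Notch2 probe 1, Notch3, Hes6, Hey1 and Insm1 (a factor of newborn neurons, whose groups overlapped with a difference of -0.64), and it was the lowest for Notch1 probe 1, Hes1 and Hes5. It was also the highest for striatal markers, with a list median of 0.50 against 0.20, -0.45 and -0.52 on the arrays labelled cKO and -0.27 and -0.23 on the other control arrays. The part of progenitor or striatal RNA in these values was not tested. Against control replicate 2 alone the progenitor median was -0.08.

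The oligodendrocyte lineage was lower for 12 of 14 markers (median -0.29, 0 passed, 7 at an unadjusted p under 0.05), with Cnp at -0.98, Enpp6 at -1.52 and Bcas1 at -0.99 as the markers with the smallest p. The myelin genes Mbp at 0.16, with groups that did not overlap, and Mog at 0.10 were the pair that read higher. Microglial markers were lower for 12 of 12 (median -0.58, 0 passed, 10 at an unadjusted p under 0.05). Excitatory neuron markers were higher for 5 and lower for 5 (median 0.08), and interneuron markers were lower for 10 of 10 (median -0.26). Lower values were also read for 7 of 7 meningeal (median -0.39) and 5 of 5 choroid plexus or ependymal markers (median -0.46). The same held for 4 of 6 striatal (median -0.29) and 3 of 3 thalamic markers (median -0.06). No marker of these further lists passed over all genes. Markers of immature neurons were higher for 10 of 12 (median 0.23, 0 passed, 5 at an unadjusted p under 0.05), with Marcksl1 at 0.36 and Gap43 at 0.30. Nrep at -0.16 and Sox4 at -0.08 read lower, with groups that overlapped. Over all genes, 7.49% had an unadjusted p under 0.05. The part of these cell types in the values of the Notch pathway genes was not tested.

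**Figure D4:**
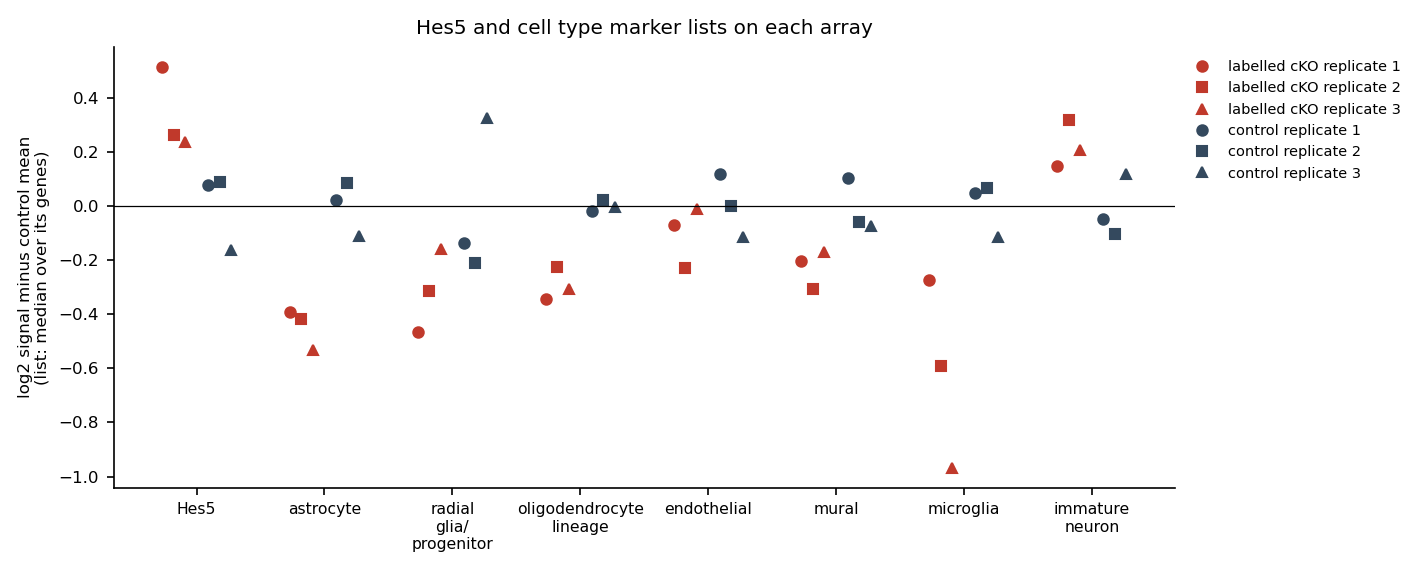
Signal of Hes5 and median signal of 7 cell type marker lists on each array, as log2 difference from the control mean (red, arrays labelled cKO; dark, control; marker shape gives the replicate). Hes5 lies above all control arrays on the arrays labelled cKO, astrocyte, oligodendrocyte lineage, mural and microglial medians lie below them, and control replicate 3 stands highest for radial glia and progenitors.

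The genes most like Hes5 over the 6 arrays were sought among 18172 protein-coding genes. By Pearson's r these were Nr2f1 (0.997), Lrrc3b (0.996), Dbnl (0.995), Mtss1 (0.995) and Gmps (0.995), each with Spearman's rho of 0.94. Nr2f1 (COUP-TFI) encodes a nuclear receptor that patterns cortical areas, and it differed by 0.34 between the groups, as Hes5 did. The most opposite were S100a6 (-0.993), Mcm3 (-0.991), Afap1l2 (-0.989), Acot3 (-0.988) and Zbtb40 (-0.987). These are descriptions over 6 arrays that share the group difference and the scaling, and 114 genes had r above 0.95.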

How the data were processed

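RNA of S1 was hybridised to 1-colour (Cy3) Agilent mouse arrays, 1 per sample. The deposited scanner files hold fluorescence intensities from Feature Extraction 10.5.1.1. Their processed intensity is, per the file headers, detrended and background-subtracted within the array and not normalized between arrays. The authors' series matrix holds log2 values. Set against the scanner intensities, they match quantile-normalized signals centred on each probe's median (95% of values within 0.00194), which is inferred from the values, with column medians between -0.0064 and 0.00645. No source used here describes how it was made.

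Control and outlier-flagged spots were left out, log2 processed intensities of a probe's spots were averaged, and each array's 75th percentile was subtracted. Probes entered the fit when well above background on 3 or more of 6 arrays (50029 probes), and each gene took its brightest probe (32696 genes). Names were updated through RefSeq tables (GRCm38.p6). The groups were compared with limma 3.58.1 in R 4.3.3 (lmFit, eBayes, two-sided, Benjamini-Hochberg over all genes, threshold 0.05), tested on simulated data first. SEs of second probes come from the fit over all probes.

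The members, lists and alternatives were chosen with earlier results of these data known. Named are all members, the 10 pathway genes with the smallest p, and the Hes and Hey relatives. Also named are up to 3 markers per list, and the 5 genes most and least like Hes5. Rfng, Pofut1, Dll4, Jag2, Dlk1, Mbp, Mog, Neurod6, Maml1, Maml2, Insm1, Tle1, Myh11, Nrep and Sox4 were named after their values were seen. A gene the rule names is not reported here. Alternatives were other scalings, normexp (offset 50), filters, probe averaging, variance models, array weights, the replicate block, each array left out, the authors' matrix, slide row, slide column and Y-linked signal.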

Additional observations from a re-analysis of the deposited data

How the results depend on the processing

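Hes5 was higher in all 23 alternatives, between 0.15 and 0.51, and Notch1, Notch3 and Hey1 were lower in all 23. The groups of Hes5, Notch3 and Hey1 did not overlap, so alternatives that only leave out or select arrays could not turn their sign. For these genes the count is therefore no measure of support. The sign held in 22 for Notch2, Jag1, Hes6 and the endothelial median, and in 20 for Dll3 and Hes1 and 19 for Dll1. Slide column as a term was added after the data were seen, and gave 0.51 for Hes5, -0.51 for Jag1, -0.05 for Hes6, -0.35 for the oligodendrocyte lineage, -0.0087 for the median of the pathway list, -0.025 for Hey2 (0.11 without it) and 15 genes passing. Hes5 moved by more than the spread between replicates within slide row 1 (0.19) and row 2 (0.15), and by leaving out 1 array it lay between 0.25 and 0.39. With a Y-linked signal term it was 0.25 (SE 0.19), with the replicate block 0.34 (SE 0.11). Other members moved so under a gene's mean of probes (Notch2 -0.23), the Y-linked signal term and equally the arrays without that signal, where control replicate 2 stands alone and is assumed to vary like the others (Notch2 -0.16, Notch3 -0.15, Dll3 0.062), within row 1 (Notch1 -0.80, Dll1 0.11, Hes6 0.36) and within row 2 (Notch2 0.034, Dll3 0.025, Jag1 0.045, Hes6 0.36). Leaving out 1 array gave Notch1 -0.53 to -0.11, Notch2 -0.70 to -0.34, Notch3 -0.29 to -0.21, Dll1 -0.18 to 0.04, Dll3 -0.52 to -0.08, Jag1 -0.36 to -0.11, Hes1 -0.09 to 0.25, Hes6 0.05 to 0.27 and Hey1 -0.19 to -0.11.

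None of the pathway list passed in any refit. Its median was 0.02, and -0.0046 with quantile normalization, -0.0045 with the authors' matrix, -0.030 with array weights, -0.012 with the Y-linked term and without those arrays, -0.00022 within row 1, -0.022 within row 2, and -0.023 to 0.034 with 1 array left out; the median of all genes lay between -0.0061 and 0.054. Marker medians moved for astrocytes within row 2 (-0.59), for progenitors with the Y-linked term or without those arrays (-0.078), within row 1 (-0.10) and row 2 (-0.030), for the oligodendrocyte lineage under a gene's mean of probes (-0.51), with the Y-linked term or without those arrays (-0.35), within row 1 (-0.18) and row 2 (-0.39), for endothelium within row 1 (-0.36) and row 2 (0.022) and for mural cells within row 1 (-0.36). With 1 array left out they lay at -0.52 to -0.42 for astrocytes, -0.42 to -0.12 for progenitors, -0.32 to -0.23 for the oligodendrocyte lineage, -0.20 to -0.01 for endothelium, -0.28 to -0.13 for mural cells and 0.16 to 0.29 for immature neurons.

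Over all genes 3 passed (3 higher, 0 lower). The count was 12 with quantile normalization and with the authors' matrix (8 higher, 4 lower), 24 with median centring (14 higher, 10 lower), 89 with normexp (42 higher, 47 lower), 0 with no filter on dim probes, 13 with the filter on all 6 arrays, 110 with an intensity trend and robust variances together, 216 with array weights, 0 with the replicate block, the slide row or a Y-linked signal term, and 0 to 4 with 1 array left out. Same-numbered arrays deviated from their group means with r of -0.20, 0.08 and 0.17 over genes for replicates 1, 2 and 3. By this r, cKO replicates 1, 2 and 3 were closest to control replicates 3, 1 and 3 (0.13, 0.24 and 0.17). Deviations within a group sum to 0, so these values cannot settle whether the numbers pair the samples.

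Among the named pathway genes signs also turned for Hes2, which lay near 0 (-0.0046 with quantile normalization, -0.0060 with median centring, -0.0045 with the authors' matrix, -0.041 with slide row, and -0.11 to 0.10 with 1 array left out), for Hes7 (-0.027 with array weights, -0.076 within row 2, and -0.0018 to 0.089 with 1 array left out) and for Adam17 (0.025 with the Y-linked term and without those arrays). The cause was not tested. Signal over background limits Notch1 probe 2, Hes3 and Hey2, the dimmest probes named.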
